A study of Mus musculus with 9 samples.

Results

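Cells grown for 2 days with 10 µM 5-aza-2'-deoxycytidine (5-aza-dC) were compared with cells grown in the solvent alone, by the methylation of their CpG sites. The cells were Abl.1, an immortalised B cell line that is 1 clone, from a female F1 mouse of the cross 129S1/SvImJ x CAST/EiJ. The controls grew in medium with 1% DMSO, and the drug had been dissolved in DMSO too. Live cells were recovered by density centrifugation on day 2, and genomic DNA went into reduced representation bisulfite sequencing (RRBS). These 2 DMSO and 2 drug libraries are 4 of the 9 in the study, whose other libraries hold 0.2 µM and 2 µM of the same drug. They were chosen by label, and 457821 CpGs with at least 5 reads in each of the 4 entered, of 2284452 with a read in any of them. In the same way, 69164 tiles of 1 kb with at least 10 reads in each of the 4 entered, of 357754 with any read. The replicates are labelled as library preparations of a group, and nothing says that they were separate cultures. The p-values therefore measure the spread between these libraries, which may be technical.

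5-aza-dC, also called decitabine, is a cytidine analogue that is built into newly made DNA and traps the DNA methyltransferases that meet it there. The maintenance enzyme Dnmt1 copies methylation onto the new strand after replication, so cells that divide with the drug present carry less of it. In most mouse cells the bodies of genes and the DNA between genes are highly methylated, while promoters rich in CpG are free of methylation, apart from those of germline genes, imprinted genes and the inactive X chromosome. RRBS cuts DNA at CCGG and reads the ends of short fragments, which favours CpG-rich DNA and skips most of the rest.

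Most promoters read here carried little methylation in DMSO, with a median level of 1.40% over 15014 windows at gene starts. The sequences below show 4 promoters that carried more. They are the 250 bases before the RefSeq gene start (GRCm38.p6), 5′ to 3′ on the gene's strand, with every CG in capitals, and they were chosen after their values were seen. Hormad1 (chr3:95559427-95559676, plus strand) and Sycp1 (chr3:102936101-102936350, minus strand) encode proteins of the meiotic chromosome axis and the synaptonemal complex. Dapk1 (chr13:60601961-60602210, plus strand) encodes death-associated protein kinase 1, and Flt1 (chr5:147726012-147726261, minus strand) encodes a receptor for vascular endothelial growth factor. The first 3 were lower with the drug and Flt1 was not.
Hormad1: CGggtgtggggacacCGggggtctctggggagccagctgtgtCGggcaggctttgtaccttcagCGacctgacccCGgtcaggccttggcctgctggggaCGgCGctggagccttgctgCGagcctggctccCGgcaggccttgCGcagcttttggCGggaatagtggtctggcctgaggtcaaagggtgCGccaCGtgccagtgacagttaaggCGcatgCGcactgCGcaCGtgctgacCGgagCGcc
Sycp1: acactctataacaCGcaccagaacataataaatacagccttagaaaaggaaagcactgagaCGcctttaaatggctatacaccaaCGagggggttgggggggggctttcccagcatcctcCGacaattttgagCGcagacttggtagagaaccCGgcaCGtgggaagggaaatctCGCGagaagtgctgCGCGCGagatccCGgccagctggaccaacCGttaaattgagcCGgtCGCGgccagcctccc
Dapk1: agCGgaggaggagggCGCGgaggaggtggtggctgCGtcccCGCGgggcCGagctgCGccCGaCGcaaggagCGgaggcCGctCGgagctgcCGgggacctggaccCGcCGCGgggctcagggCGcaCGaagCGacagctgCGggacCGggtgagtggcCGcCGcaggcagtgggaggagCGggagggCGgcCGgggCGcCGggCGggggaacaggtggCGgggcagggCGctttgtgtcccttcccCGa
Flt1: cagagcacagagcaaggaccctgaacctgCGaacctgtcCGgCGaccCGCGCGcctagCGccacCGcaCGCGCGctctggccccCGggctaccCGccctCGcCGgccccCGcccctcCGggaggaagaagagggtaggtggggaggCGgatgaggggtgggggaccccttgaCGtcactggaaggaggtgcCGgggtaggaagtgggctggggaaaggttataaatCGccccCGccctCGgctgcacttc
The stretches hold 19, 17, 33 and 23 CpGs and 4, 3, 4 and 5 CCGG sites, in the order shown. At least 5 reads in each of the 4 libraries covered 9 CpGs of the Hormad1 stretch, 6 of Sycp1, 7 of Dapk1 and 15 of Flt1.

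Over the Hormad1 CpGs, from base -235 to base -4 before the start, the mean level was 89.7% and 87.2% in the DMSO libraries and 64.0% and 61.1% in the 10 µM libraries. The mean was lower at 10 µM for 8 of the 9. The 6 Sycp1 CpGs were all lower at 10 µM: their mean was 95.2% and 97.9% in DMSO and 60.2% and 70.2% with the drug. The 7 Dapk1 CpGs had means of 92.4% and 88.6% in DMSO and 57.1% and 73.8% with the drug, and 6 of them were lower. In these 3 promoters the means of the drug libraries lay below those of the DMSO libraries, and most CpGs read were lower. The Sycp1 CpGs lay from base -92 to base -57 and the Dapk1 CpGs from base -144 to base -109. The rest of both stretches held no CpG with enough reads. Single CpGs had 5 to 19 reads in Hormad1, 5 to 14 in Sycp1 and 5 to 7 in Dapk1, and neighbouring CpGs share reads.

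Flt1 showed a mixture. Its 15 CpGs had means of 45.1% and 44.0% in DMSO and of 36.7% and 59.0% at 10 µM. At the 9 CpGs from base -208 to base -178, replicate 1 of the drug lay below both DMSO libraries at 8 and replicate 2 lay above both at 8. The means there were 45.4% and 47.5% in DMSO and 28.8% and 69.6% with the drug. In this stretch the 2 drug libraries thus lay on opposite sides of DMSO. Single CpGs had 7 to 20 reads in Flt1, and CpGs this close share reads, so they are not separate evidence.

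Methylation was lower at 10 µM on the scale of single CpGs. Over the 457821 CpGs the mean level was 17.6% and 17.8% in the DMSO libraries and 13.8% and 13.9% in the 10 µM libraries, and the groups did not overlap. The group means were 17.7% ± 0.147 and 13.8% ± 0.0981 (SD, n = 2 each), so 78.1% of the DMSO level was present with the drug. The exact two-sided permutation p was 0.333, the smallest that 2 libraries against 2 can give. CpGs at 80% or above made up 11.9% and 12.3% of all in DMSO and 3.66% and 4.51% with the drug. The change was -6.66 percentage points over the 1187183 CpGs with at least 1 read and -1.19 points over the 176197 with at least 10. The DMSO levels of these sets were 38.3% and 6.54%. Reads at these CpGs totalled 16495535 and 9422785 in the DMSO libraries and 13083729 and 8590883 in the drug libraries before any filter, with medians of 3 to 5 reads per CpG.

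Weighting each CpG by its reads turned the direction: the level was then 10.7% and 12.8% in DMSO and 13.6% and 14.02% at 10 µM. CpGs with a 4-library mean of 50% or above took 8.34% and 10.2% of the reads in DMSO and 14.7% and 15.2% with the drug. At those 72028 CpGs the unweighted level was 86.7% and 87.2% in DMSO and 64.6% and 65.4% with the drug. The libraries thus differed in where their reads fell. The mean change over all tiles was -10.9 points from summed reads and -11.0 points as an unweighted mean over the CpGs of a tile. How far the difference enters single tiles or windows was not tested. The level of a tile or window below is its methylated reads over all its reads, so deeper CpGs weigh more within it, while means over tiles, windows or genes give each the same weight.

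The fall was seen in tiles that were methylated in DMSO. Tiles at 90 to 100% made up 25.1% ± 0.872 of all tiles in DMSO and 4.51% ± 1.09 with the drug (SD, 2 libraries each). Tiles at 50 to 60% rose from 4.89% ± 0.0123 to 12.3% ± 0.325 of all, and those under 10% stayed at 27.0% ± 0.0245 and 27.1% ± 0.232. With the drug the most common methylated tile stood at 60 to 70% (13.4% ± 0.607 of tiles). Across tiles, which are not independent replicates, Pearson's r was 0.967 between the DMSO libraries and 0.885 between the drug libraries.

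**Figure D1:**
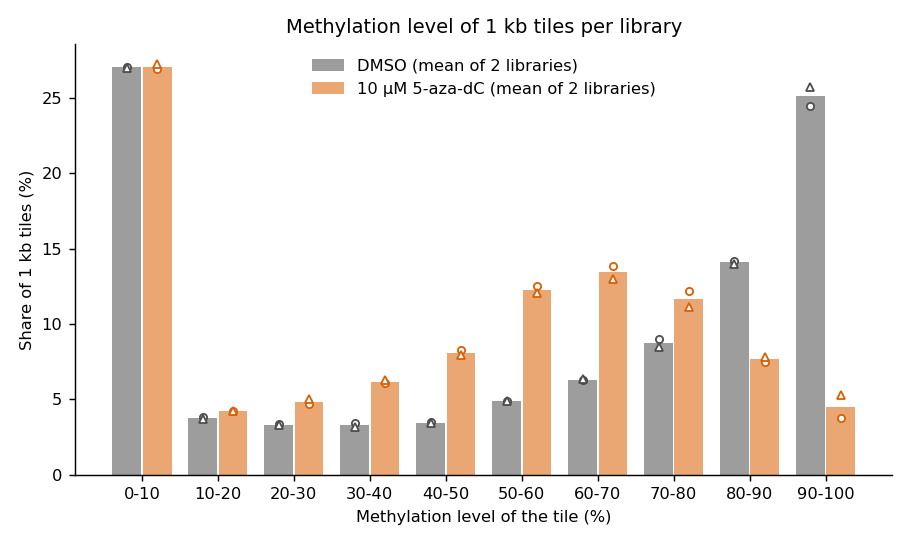
Share of the 69164 tiles (y axis, %) in each step of 10 points of the methylation scale (x axis, %), with bars for the mean of 2 libraries and open circles and triangles for replicates 1 and 2. The bar at 90 to 100% falls from 25.1% of tiles in DMSO to 4.51% at 10 µM, while the bar under 10% is 27.0% and 27.1%.

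To keep the choice of tiles apart from the level they are read at, tiles were grouped by 1 DMSO library and the baseline was taken from the other. The 26755 tiles at 80% or above in DMSO replicate 1 had a level of 90.02% in replicate 2 and of 69.3% and 69.5% with the drug, 77.1% of that baseline. With the roles exchanged, 27462 tiles went from 89.2% to 69.0% and 69.1%. Tiles between 20 and 80% kept a larger share, 82.3% and 83.9% of the baseline. Tiles under 20% stood at 3.91% and 3.77% in DMSO and at 3.96% and 3.99% on average with the drug, a difference below 0.3 points.

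Among the 39378 tiles with a 4-library mean of 50% or above, 26725 (67.9%) were lower in both drug libraries than in both DMSO libraries. Inside genes, away from the gene start, such tiles fell from 86.0% ± 0.302 to 67.2% ± 0.196 (22462 tiles, SD over 2 libraries). Those within 1 kb of a gene start fell from 79.3% ± 0.518 to 63.4% ± 0.143 (3514 tiles), and those outside genes from 82.1% ± 0.450 to 64.7% ± 0.0806 (12241 tiles). By CpGs read, the change was -20.9 points with under 5 (16164 tiles), -16.7 with 5 to 9 (15865 tiles), -14.8 with 10 to 19 (4931 tiles) and -15.4 with 20 or more (2418 tiles). Each of these changes was larger than the spread between libraries, and each has an exact permutation p of 0.333.

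Chromosomes differed little. The change of tiles at 50% or above lay between -16.2 points on the X (80.3% to 64.0%, 1491 tiles) and -19.8 points on chromosome 13 (84.1% to 64.3%, 1560 tiles). On the X, 79.8% of the DMSO level was present with the drug, against 78.5% on the autosomes.

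Around gene starts the 2 drug profiles ran below the 2 DMSO profiles at every distance drawn. From 250 to 500 bases after the start the level was 7.88% and 8.07% in DMSO and 6.52% and 6.71% with the drug (59561 CpGs). From 4750 to 5000 bases after the start, where the gap was widest, it was 48.6% and 48.2% in DMSO and 37.0% and 37.1% with the drug (597 CpGs). The DMSO level was higher there too.

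**Figure D2:**
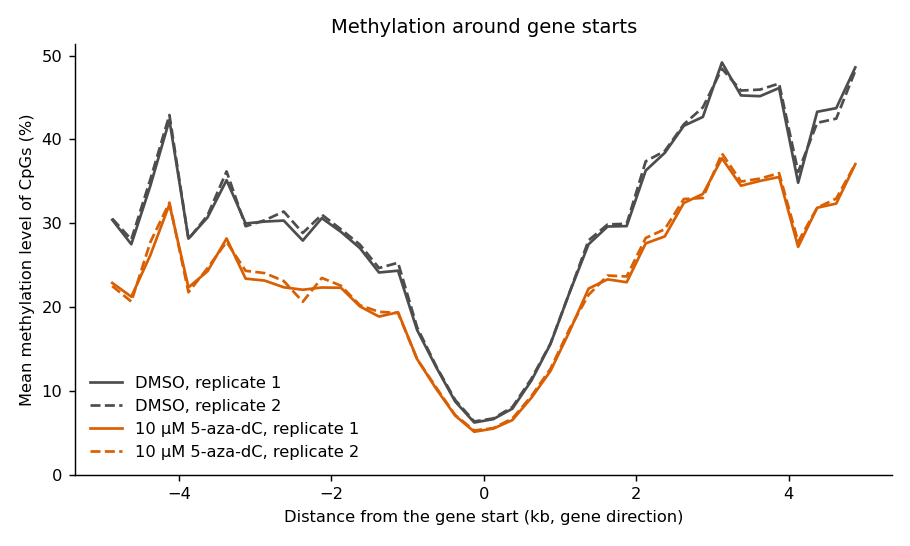
Mean methylation level of CpGs (y axis, %) in bins of 250 bases by distance from the gene start (x axis, kb, in the direction of the gene), 1 line per library. The lines of all libraries dip at the start, and the drug lines lie below the DMSO lines, by most at 4750 to 5000 bases after the start (48.6% and 48.2% in DMSO against 37.0% and 37.1%).

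Gene bodies carried the clearest result. The level of a protein-coding gene was the mean over its tiles at 50% or above, for the 2901 genes with at least 3 such tiles, and groups were compared with limma and Benjamini-Hochberg adjustment. At an adjusted p under 0.05, 2523 genes (87%) were lower at 10 µM and 0 (0%) were higher. At an unadjusted p under 0.05, limma also gave 0 higher. The libraries did not overlap in 2754 genes (94.9%), with both drug values below both DMSO values. The median gene went from 86.4% to 67.2%, and its median change was -18.1 points. The middle of the distribution was narrow: the 5th and 95th percentiles were -30.6 and -6.70 points. By count, 168 genes fell by over 30 points, 340 lay within 10 points of 0 and 17 had a higher mean with the drug.

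**Figure D3:**
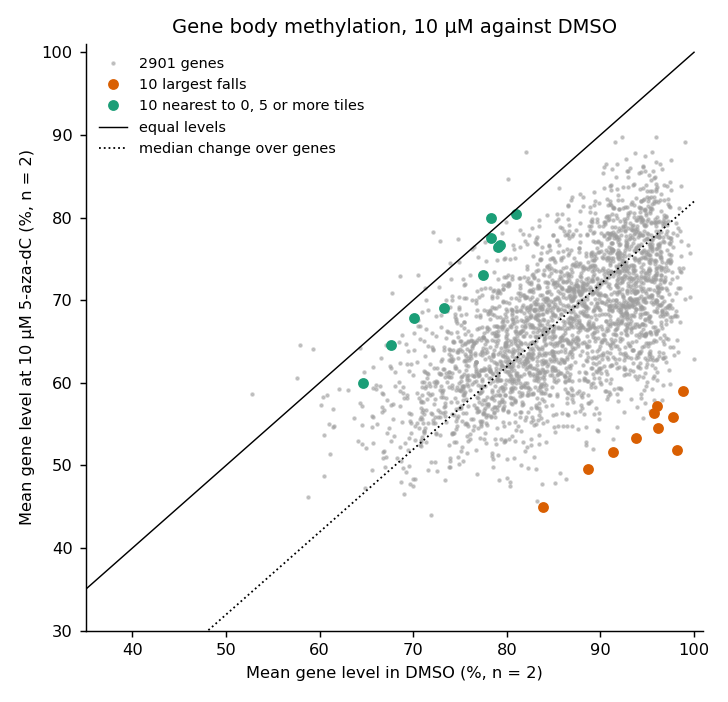
Mean level of each of 2901 genes in DMSO (x axis, %) and at 10 µM (y axis, %), each the mean of 2 libraries, with a solid line of equal levels and a dotted line at the median change of -18.1 points. The cloud lies below the line of equal levels, with the 10 largest falls (orange) at 45.0% to 59.0% with the drug and the 10 genes nearest to 0 (green) beside the solid line.

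The group means of the 10 genes with the largest falls lay between 83.8% and 98.8% in DMSO and between 45.0% and 59.0% with the drug. The choice of tiles by their mean over DMSO and drug libraries allows large falls only where the DMSO level is high. Adk (chr14:21052574-21448569), which encodes adenosine kinase, read 97.7% and 98.8% in DMSO and 64.1% and 39.7% with the drug over 3 tiles. It fell by 46.3 points (SE 7.16, adjusted p = 0.000624 by limma). Clcn5 (chrX:7153810-7319358), a chloride-proton exchanger of endosomes, read 95.6% and 96.7% in DMSO and 49.5% and 59.5% with the drug. It fell by 41.6 points (SE 4.99). The groups were far apart in both genes, and in Adk replicate 2 of the drug lay well below replicate 1.

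Chd8, a chromatin remodeller, read 93.1% and 94.5% in DMSO and 67.8% and 38.9% with the drug. Cmah, the enzyme that makes the sialic acid Neu5Gc, read 98.6% and 99.0% in DMSO and 71.3% and 46.8% with the drug. In Chd8 and Cmah too, replicate 2 was the lower drug library. Slc6a6, the taurine transporter, read 91.1% and 91.7% in DMSO and 49.6% and 53.7% with the drug. AU040320 went from 98.2% and 97.3% to 61.6% and 50.2%, and the inhibitor of Wnt ligands Wif1 from 78.3% and 89.4% to 43.1% and 46.9%.

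The closest agreement between drug libraries was seen in 3 of the 10 genes. Rest (chr5:77265494-77286432), the repressor of neuronal genes, read 96.3% and 95.05% in DMSO and 56.2% and 56.6% with the drug. It changed by -39.3 points (SE 4.43, adjusted p = 0.000289 by limma). Sptbn1 (chr11:30099395-30268384), a spectrin of the membrane skeleton, read 87.6% and 89.8% in DMSO and 49.5% in both drug libraries. Cnksr3 (chr10:7119061-7212237), a scaffold protein of the Ras pathway, had 6 tiles and read 96.5% and 95.7% in DMSO and 56.8% and 57.7% with the drug. It fell by 38.8 points (SE 3.19, adjusted p = 0.000259 by limma). The other genes of the 10 rest on 3 or 4 tiles.

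**Figure D4:**
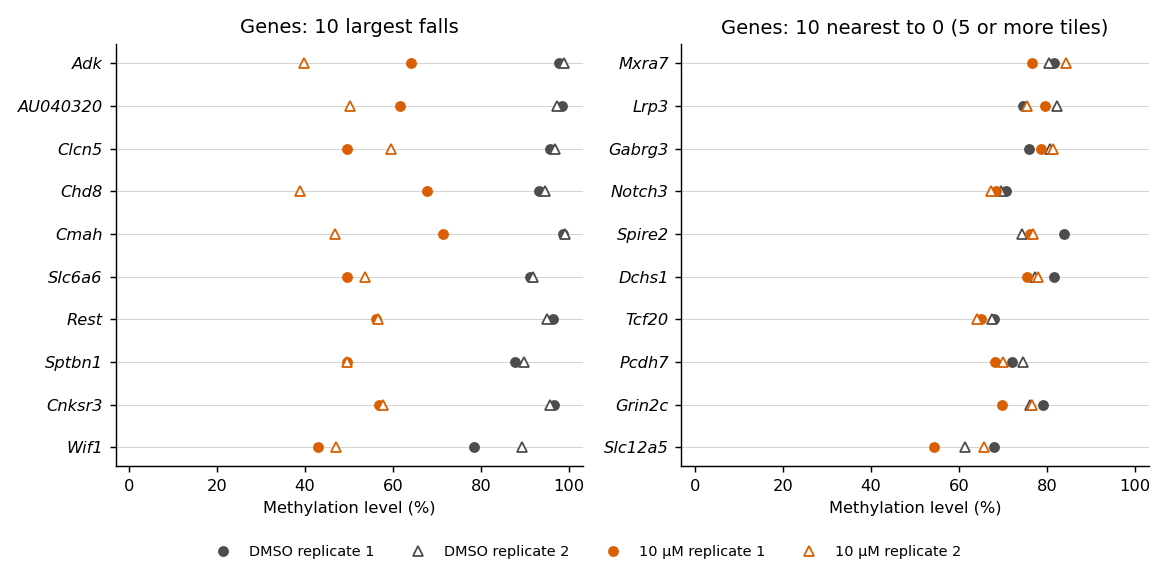
Methylation level (x axis, %) of the 10 genes with the largest falls (left) and of the 10 genes with at least 5 tiles whose change was nearest to 0 (right), with 1 mark per library. On the left every drug mark lies left of both DMSO marks, as the choice required. The 2 drug marks of Adk there are at 64.1% and 39.7%. On the right the marks of 7 of 10 genes overlap.

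Which genes fell more than the rest was less clear than that genes fell. Tested against the median change in place of 0, 0 genes (0%) passed limma's adjusted threshold in either direction (smallest adjusted p = 0.135). At an unadjusted p under 0.05, 291 fell more and 256 fell less than the median gene. With all 9 libraries in the fit, which was added after seeing the data, Cnksr3, E2f7 and Msi2 passed as falling more and Negr1 as falling less, of 2809 genes. The cell cycle regulator E2f7 read 96.1% and 93.0% in DMSO and 58.0% and 53.5% with the drug over 5 tiles. Msi2, an RNA-binding protein of blood stem cells, read 95.2% and 93.1% in DMSO and 62.7% and 58.9% with the drug over 12 tiles. Negr1, a cell adhesion molecule, read 59.1% and 56.7% in DMSO and 64.5% and 64.6% with the drug over 3 tiles. Their adjusted p against the median change with all 9 libraries was 0.0251 for Cnksr3 and Msi2 and 0.0482 for E2f7 and Negr1.

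Genes with 20 or more tiles gave the most precise changes. These 36 genes, some of which overlap in the Pcdhg cluster and share tiles, had changes from -26.9 to -7.41 points. All fell without overlap between groups, against 94.9% of all genes tested, which is no result about these genes. Wwox (chr8:114439635-115352712), an oxidoreductase gene over a fragile site, lost the most: it read 90.7% and 91.5% in DMSO and 67.1% and 61.4% with the drug over 27 tiles. The zinc transporter gene Slc39a11 read 89.7% and 91.8% in DMSO and 66.7% and 67.4% with the drug over 43 tiles (change -23.7 points, SE 2.08). At the other end stood Gse1, Dnah17 and Hspg2. Gse1 read 81.7% and 81.0% in DMSO and 72.0% and 69.6% with the drug over 52 tiles, and it fell by 10.5 points (SE 2.07). Dnah17, a dynein heavy chain, fell by 9.90 points (SE 2.15) over 26 tiles. Hspg2, the basement membrane protein perlecan, read 79.1% and 78.1% in DMSO and 67.3% and 75.1% with the drug over 23 tiles (adjusted p = 0.0315 by limma).

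The change varied somewhat with gene length and with CpGs read per tile, without adjustment for the DMSO level. Genes under 20 kb changed by a median of -15.7 points (470 genes) and genes of 100 to 200 kb by -19.5 points (539 genes). Genes with under 4 CpGs read per tile changed by -22.2 points (225 genes) and those with 8 or more by -16.1 points (1103 genes). The DMSO levels of the last 2 classes were 90.2% and 82.7%. Across the 2901 genes, which share libraries and are not independent, Spearman's correlation of the change was -0.449 with the DMSO level, 0.240 with CpGs read per tile and -0.158 with gene length. The DMSO level enters the change itself, so its correlation is in part arithmetic. The level filter for tiles adds to this, because it takes the mean over the DMSO and drug libraries together. A tile with a lower DMSO level can therefore fall less before the filter leaves it out. How much of the correlation comes from the filter was not tested.

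A level was called kept where the 95% interval of the change lay within 5 points of 0. In 0 of the 2901 genes did it do so, and in only 10 was the interval narrow enough to allow it. Within 10 points of 0, a wider limit added after seeing the data, lay Lrp3 and Mxra7, of 1456 genes with intervals narrow enough. Mxra7 (chr11:116803400-116828127) read 81.6% and 80.4% in DMSO and 76.6% and 84.2% with the drug over 5 tiles (change -0.642 points, interval -9.49 to 8.21). Lrp3 (chr7:35200878-35217392), of the low-density lipoprotein receptor family, read 74.4% and 82.2% in DMSO and 79.6% and 75.4% with the drug (change -0.831 points, interval -9.95 to 8.29). In both genes the groups overlapped. When the reads of all tiles were summed, so that deep tiles weighed more, both passed as lower: Mxra7 changed by -15.1 points (adjusted p = 0.00313) and Lrp3 by -9.11 points (adjusted p = 0.0307, limma). Single libraries also turned the sign: Mxra7 changed by 3.18 points without 10 µM replicate 1, and Lrp3 by 3.07 points without DMSO replicate 2 and by 1.26 points without 10 µM replicate 2.

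The 10 genes with at least 5 tiles nearest to a change of 0 were picked after their values were seen. The level filter for tiles limits how far genes with lower DMSO levels can fall, and its part in this set was not tested. They are Mxra7, Lrp3, Gabrg3, Notch3, Spire2, Dchs1, Tcf20, Pcdh7, Grin2c and Slc12a5, and their changes ran from -4.70 to 1.67 points. Gabrg3, a subunit of the GABA-A receptor, read 75.9% and 80.7% in DMSO and 78.7% and 81.2% with the drug. The receptor gene Notch3 read 70.6% and 69.5% in DMSO and 68.5% and 67.3% with the drug. Tcf20, a transcriptional coregulator, read 67.9% and 67.4% in DMSO and 65.0% and 64.1% with the drug. Notch3, Tcf20 and Pcdh7 did not overlap between groups, although none of the 10 passed limma's threshold.

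The values of these genes at the lower doses, which share the DMSO libraries, stand here side by side and were not tested. The 10 genes nearest to 0 had means of 60.0% to 80.4% at 10 µM, of 41.9% to 55.7% at 2 µM and of 20.3% to 50.8% at 0.2 µM. For Mxra7 the 10, 2 and 0.2 µM means were 80.4%, 50.2% ± 4.10 (3 libraries) and 28.3% ± 0.0644 (2 libraries, SD). The 10 genes with the largest falls stood at 45.0% to 59.0%, 37.5% to 53.4% and 20.6% to 42.1% at 10, 2 and 0.2 µM. Adk was at 51.9%, 48.1% ± 9.05 and 39.5% ± 2.84, and Chd8 at 53.4%, 40.8% ± 3.49 and 41.5% ± 2.84, in the same order. Both sets were chosen by their 10 µM values, which fixes in part how far those lie from the lower doses. In each of the 20 genes the 0.2 µM mean was below the 10 µM mean. That is not particular to them. The 36 genes with 20 or more tiles stood at 25.7% to 48.4% at 0.2 µM and at 56.9% to 76.3% at 10 µM.

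Promoter windows, from 1 kb before to 1 kb after a gene start, were tested on their methylated and unmethylated reads in a binomial model whose spread limma moderated. Of 15014 windows, 358 (2.38%) were lower at 10 µM and 5 (0.0333%) were higher at an adjusted p under 0.05. Most windows had little to lose: 10223 had a 4-library mean under 20%, with a median DMSO level of 0.621% and a median change of 0 points. Of the 3108 windows at 50% or above, 356 passed as lower (11.5%), 2295 did not overlap between groups (73.8%), and the median change was -15.7 points. Windows that passed were read more deeply, with a median of 240 reads in the library with fewest against 51 for all windows at 50% or above. How far read depth decides which windows passed was not tested. Calls of single windows were fragile: with any of the 4 libraries left out, or with the replicate number as a block, 0 windows passed. The windows lower at an unadjusted p under 0.05 then numbered 942 to 1057 with a library left out and 991 with the block.

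The 10 largest falls were taken among windows of protein-coding genes that passed, with at least 20 reads per library and no overlap between groups. Their changes ran from -57.4 to -39.1 points. Plce1, a phospholipase C, read 97.3% and 100% in DMSO and 52.6% and 29.8% with the drug (chr19:38523197-38525197, 29 to 57 reads, adjusted p = 0.0143 by the binomial model). Actl7b, an actin-like protein of the testis, had the smallest adjusted p of the 10 (0.00752). It read 97.2% and 95.9% in DMSO and 53.2% and 56.3% with the drug (chr4:56740425-56742425, 74 to 158 reads). Dcdc2c, a doublecortin domain gene, read 94.5% and 90% in DMSO and 53.8% and 49.5% with the drug over 93 to 171 reads. Tas1r3, a subunit of the sweet and umami taste receptors, read 96.7% and 92.0% against 52.5% and 43.9%.

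Nr1h3, the oxysterol receptor LXR alpha, read 96.3% and 96.9% in DMSO and 50.0% and 64.9% with the drug. Fbln5, a protein of elastic fibres, read 76.1% and 83.0% against 37.5% and 26.0%, with the same reads at its 2 listed starts. Stard13 read 76.8% and 60.5% against 19.5% and 28.6%. The others were H2bfm, a histone gene on the X (change -51.8 points), 1700011L22Rik (change -48.2 points, 22 to 38 reads) and Fam53b (change -43.5 points). By the rule of choice, in none of the 10 did the groups overlap. At 0.2 µM the Actl7b window stood at 52.1% in both libraries and at 2 µM at 57.0% to 60.6%, beside 53.2% and 56.3% at 10 µM. Other windows of the 10 differed more between doses, in both directions. The means at 0.2, 2 and 10 µM were 20.3%, 47.5% and 57.5% for Nr1h3 and 29.7%, 31.5% and 53.1% for Fam53b. For Plce1 they were 55.1%, 43.2% and 41.2%. The doses were not tested against each other.

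**Figure D5:**
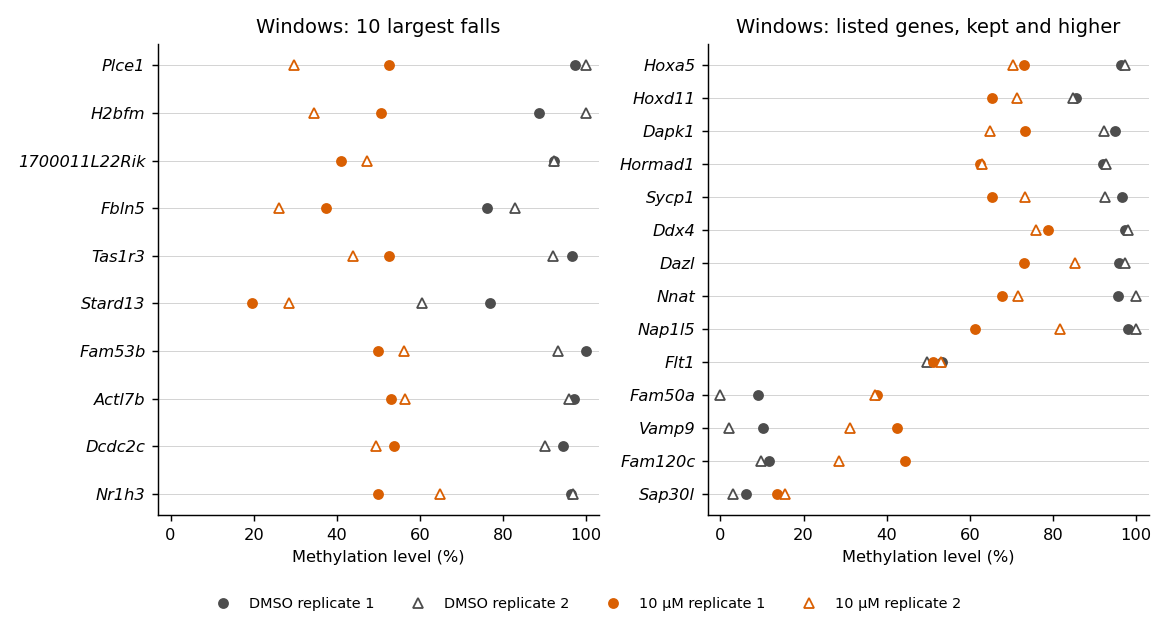
Methylation level (x axis, %) of promoter windows with 1 mark per library: the 10 largest falls (left) and, on the right, the germline, imprinted, Hox and tumour suppressor windows that passed, the kept window of Flt1 and the higher windows. The drug marks lie left of the DMSO marks in every row but the last 5. In those, Flt1 stays near 50% and Fam50a, Vamp9, Fam120c and Sap30l move right. The 10 largest falls and the higher windows were picked among windows without overlap.

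Germline genes, whose promoters are methylated in most body cells, were read in 22 windows of 21 genes, each at 50% or above with a median of 90.03% in DMSO. Each had a lower mean at 10 µM, as had 2757 of 2979 autosomal and 119 of 129 X windows at that level. Of the 22, 19 did not overlap between groups, against 73.8% of all windows at 50% or above. In all, 4 passed (18.2%, against 11.5% of all windows at that level). The median change was -15.7 points, the same as over all windows at that level. The 4 were Hormad1, Sycp1, Ddx4 and Dazl. Hormad1 read 92.0% and 92.9% in DMSO and 62.4% and 62.9% with the drug over its 2 kb window (change -29.8 points, SE 5.52, adjusted p = 0.0193 by the binomial model). Sycp1 read 96.6% and 92.6% against 65.2% and 73.3%. Ddx4, an RNA helicase of germ cells, read 97.2% and 98.1% against 78.9% and 75.9%. Dazl, an RNA-binding protein of germ cells, read 95.9% and 97.3% against 73.1% and 85.3%. Nearest to 0 were Fkbp6, at 94.1% and 93.3% against 77.6% and 98.0%, and Tex101, at 74.6% and 77.1% against 62.5% and 74.5%. In Fkbp6 the drug libraries lay on either side of the DMSO libraries.

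Imprinted genes, which carry methylation on the copy from a given parent, were read in 19 windows, 14 of them at 50% or above. Nnat and Nap1l5 passed as lower, 14.3% of the 14 against 11.5% of all windows at that level, which is no result about the list. Nnat read 95.7% and 100% in DMSO and 67.8% and 71.5% with the drug (adjusted p = 0.0220), and Nap1l5 98.1% and 100% against 61.2% and 81.7% (adjusted p = 0.0463, binomial model). Snrpn and Zrsr1 were nearest to 0, with changes of -3.91 and -6.45 points and groups that overlapped. Slc38a4 was the only one of the 14 with a higher mean, at 55.9% and 66.7% in DMSO and 66.0% and 79.5% with the drug, and it did not pass. Reads were not split by parent here.

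In the Hox clusters, 12 of 21 windows stood at 50% or above. Each of the 12 had a lower mean at 10 µM, as had 2757 of 2979 autosomal windows at that level. Hoxa5 and Hoxd11 passed, 16.7% of the 12 against 11.5% of all windows at that level. Hoxa5 read 96.4% and 97.3% in DMSO and 73.1% and 70.5% with the drug (adjusted p = 0.00838), and Hoxd11 85.4% and 84.7% against 65.4% and 71.4% (adjusted p = 0.0316, binomial model). Hoxa6 and Hoxa2 changed least among the 12, by -6.17 and -7.60 points, with overlapping groups. Zinc finger genes had 259 windows, 218 of them under 20%, and 2 passed, Zfp618 and Zfp651 (0.772%, against 2.38% of all windows). Both were among the 25 at 50% or above. Zfp651 read 88.2% and 89.8% in DMSO and 67.8% and 68.9% with the drug. The clustered protocadherins had no promoter window here, and 32 of 32 gene bodies were lower, against 87% of all genes, but these bodies overlap and share tiles.

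Of the cell cycle inhibitors and tumour suppressors, 3 of 18 windows were at 50% or above and Dapk1 passed (5.56% of the 18, against 2.38% of all windows). It read 95.04% and 92.2% in DMSO and 73.2% and 64.8% with the drug (change -24.6 points, SE 4.13, adjusted p = 0.0143 by the binomial model). A start of Trp73, of the p53 family, read 76.0% and 85.7% against 61.7% and 62.1% and did not pass. A start of Cdkn2a, named after its values were seen, read 87.5% and 81.2% against 40.7% and 34.8% over 16 to 32 reads (change -46.6 points, adjusted p = 0.0769). Its groups were well apart although the adjusted threshold was missed, and its other start read 5.34% and 5.68% in DMSO and 6.23% and 2.50% with the drug.

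Genes of viral sensing and the interferon response, often studied after loss of methylation, had 11 windows with DMSO levels of 0% to 2.74%. None passed, against 2.38% lower over all windows, and none had an unadjusted p under 0.05 in the binomial model. Changes ran from -1.57 to 5.44 points. Levels this low leave almost no room for a fall, and only 2 of the 358 lower windows had a 4-library mean under 50%. The absence of lower calls is therefore no result about these genes. The 18 windows of DNA methylation enzymes and readers, 16 of them under 20%, held 0 calls, with 1 higher at an unadjusted p under 0.05. Dnmt1 read 0.756% and 0.175% in DMSO and 0.294% and 0.526% with the drug. Of the 14 windows of drug uptake and metabolism, 13 were under 20%, Dck, which activates the drug, among them (0.298% and 0% against 0.197% and 0%). The other is a start of Slc29a1, a nucleoside transporter, at 92.5% and 93.3% in DMSO and 46.2% and 79.2% with the drug (adjusted p = 0.158, binomial model). No window of this list passed, and 1 was lower at an unadjusted p under 0.05.

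The B cell label was checked by methylation alone. Of 11 windows of B lineage genes, 10 were under 20%, with Ebf1 at 0.204% and 0.397% in DMSO and Igll1 at 0% in the 4 libraries. Their median in DMSO was 0.658%. Over all windows 10223 of 15014 were under 20%, with a median of 1.40% in DMSO. Of the T lineage windows 3 of 5 were under 20%, as was the 1 myeloid window. Low levels here thus do not tell the lineages apart. Rag1 stood at 45.5% and 44.1% in DMSO and 14.3% and 44.4% with the drug. Among T lineage windows, Bcl11b read 84.7% and 84.4% in DMSO and 68.2% and 71.8% with the drug, and Tcf7 and Gata3 were under 10%. No B or T lineage window passed, while at an unadjusted p under 0.05 the binomial model gave 0 and 1 lower, the latter being Bcl11b. The 1 myeloid and 4 erythroid windows held no call either, with 0 at an unadjusted p under 0.05. An unmethylated promoter does not show that a gene is expressed.

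On the X chromosome, 14 of 441 windows were lower (3.17%, against 2.38% of all windows). On the X 2 were higher, against 5 of 15014 (0.0333%) over all windows. Some of the lower windows overlap, among them those of Hs6st2 and Gm35727, so the count is not of separate regions. At 50% or above, 14 of 129 were lower (10.9%), near the 11.5% of all windows at that level. Hs6st2, a heparan sulfate sulfotransferase gene, read 89.7% and 91.1% in DMSO and 62.4% and 62.0% with the drug at a start with 213 to 418 reads (adjusted p = 0.0119, binomial model). Morc4, of the MORC family of ATPases, read 92.3% and 94.1% against 59.6% and 75.3%. Windows at 10 to 50% differed in direction from those of the autosomes. The 293 X windows in that range had a mean of 20.7% and 23.3% in DMSO and 24.5% and 24.3% with the drug, and 182 had a higher mean. The 2160 autosomal windows in that range had 29.6% and 30.5% in DMSO and 28.2% and 28.3% with the drug, and 899 had a higher mean. The X change of 2.40 points was little more than the 1.89 SD between the DMSO libraries, and a test of the difference between X and autosomes was not made. At 50% or above, the 129 X windows fell by 16.4 points and the 2979 autosomal windows by 15.6 points.

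The windows that were higher at 10 µM started low. Fam50a on the X read 9.09% and 0% in DMSO and 37.7% and 37.1% with the drug (35 to 154 reads, adjusted p = 0.0270). Fam120c, also on the X, read 11.6% and 9.66% against 44.4% and 28.5%, and Vamp9 10.3% and 2.17% against 42.6% and 31.2%. Sap30l, which encodes a partner of the Sin3A repressor, read 6.10% and 2.99% in DMSO and 13.5% and 15.4% with the drug over 1231 to 3179 reads (adjusted p = 0.0272, binomial model), sharing its reads with the lncRNA 2010001A14Rik. In each the groups were apart, which the choice of named windows required. At the lower doses Sap30l read 8.04% to 11.4% and Fam120c 5.19% to 20.8%.

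Flt1 and the lncRNA Gm11762 were the 2 windows at 50% or above that kept their level within 10 points, of 342 with intervals narrow enough. Over its whole window Flt1 read 53.3% and 49.8% in DMSO and 51.2% and 53.0% with the drug (change 0.565 points, interval -7.51 to 8.64, 673 to 1169 reads). It read 40% and 34.7% at 0.2 µM and 30.4% to 38.4% at 2 µM. Its sign was not settled, with a change of -1.19 points without DMSO replicate 2 and of -0.331 points without 10 µM replicate 2. Gm11762 had group means of 61.8% in DMSO and 61.8% at 10 µM (interval -9.18 to 9.14).

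Of the 69164 tiles, 410 (0.593%) passed as lower and 3 (0.00434%) as higher in the same binomial model. Lower tiles went from a median of 94.4% to 62.4%, with a median of 160 reads in the library with fewest against 25 for all tiles. As for windows, 0 tiles passed with any library left out. Largest falls were taken among lower tiles with at least 20 reads per library and no overlap between groups. The first was a tile outside genes, chr12:64726001-64727000, at 94.9% and 84.0% in DMSO and 8.87% and 12.4% with the drug. It had 59 and 25 reads in DMSO and 530 and 429 with the drug, so the groups differed in reads as well as in level. Reads differed likewise in a tile inside Cep128 (chr12:91164001-91165000), at 95% and 85.7% against 21.3% and 16.7%, with 40 and 35 against 389 and 312 reads. What the gap in reads adds to these levels was not tested. A tile of Cdk7, the kinase of the CDK-activating complex (chr13:100704001-100705000), read 93.9% and 100% against 31.0% and 22.2% with 24 to 42 reads. A tile of Jade1 (chr3:41593001-41594000) read 95% and 100% against 28.8% and 31.7%, and one at chr12:115559001-115560000 read 95.7% and 100% against 22.2% and 23.9%.

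Rises were named among tiles that passed with at least 20 reads per library and no overlap between groups. The largest was in a tile that Cmss1 and Filip1l share (chr16:57391001-57392000), at 14.2% and 17.6% in DMSO and 57.5% and 62.3% with the drug. A tile of Bcor, a corepressor gene on the X (chrX:12078001-12079000), read 5.73% and 6.23% in DMSO and 28.1% and 27.6% with the drug over 210 to 611 reads. The Bcor tile stood at 9.58% to 15.3% at 0.2 µM and at 18.4% to 25.2% at 2 µM. By this choice the drug libraries were above the DMSO libraries in both tiles. The other tile of the 3 that passed as higher did not meet the rule.

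Kept tiles numbered 18 of the 699 at 50% or above with intervals narrow enough for a limit of 10 points. Asic2, an acid-sensing ion channel gene, held one (chr11:81431001-81432000) at 92.9% and 91.9% in DMSO and 91.4% and 94.2% with the drug over 482 to 709 reads. It read 83.2% to 85.0% at 0.2 µM and 88.6% to 92.8% at 2 µM. Egflam held another (chr15:7367001-7368000) at 90.4% and 89.2% against 88.5% and 87.2%, and at 67.7% to 71.1% at 0.2 µM. The 3 others with the most reads lay outside genes. One of them, chr12:65266001-65267000, read 86.9% and 88.8% in DMSO and 86.8% and 88.6% at 10 µM over 760 to 1409 reads, and 54.6% and 55.1% at 0.2 µM.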

How the data were processed

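RRBS libraries of Abl.1 cells were compared between 10 µM 5-aza-dC (n = 2) and DMSO (n = 2). The authors deposited 1 table per library with, for each CpG, its position, a text of methylated over all reads, and a score, which in each line was 1000 times the methylated share without its decimals. Reads were taken from the text. The build is mm10, per the submitters' processing notes. For the aligner and caller, no name is given in the sources used here. Positions were 0-based: 100% of 256267 positions inside RefSeq promoters lay on a CG. Lines at repeated positions were left out. The members and gene lists were chosen with earlier results of these data known.

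Tiles and windows (at least 10 reads per library) were tested with a quasi-binomial model on reads scaled to their effective size, with dispersion moderated by limma 3.58.1 in R 4.3.3, a trend on coverage and a floor of 1. The dispersion prior was fitted on features at 10 to 90%. That was chosen after a prior from all features gave 0 calls and recovered no change in data simulated with known changes. Genes (at least 3 tiles, each overlapping by 500 bases and at 50% or above) were tested with limma on mean levels with a trend on the number of tiles. P-values were adjusted by Benjamini-Hochberg at 0.05. Class means used exact two-sided permutation tests. Precision is limited by depth, which was a median of 42 reads per library in tiles and 362 in windows. Intervals cover counting error and the spread between 2 libraries, and PCR copies were not separated.

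Named features were the 10 largest falls in windows and genes (5 in tiles), up to 5 rises, kept features with the most reads or tiles, and members of lists that passed or lay nearest to 0. Falls and rises had to pass and to show no overlap between groups, with at least 20 reads per library in windows and tiles. Genes nearest to 0, genes with 20 or more tiles and the printed promoters were added after seeing the values. Replicate numbers did not pair the libraries (correlation of same-numbered deviations -0.00245 over 69164 tiles). Promoters came from a RefSeq table (GRCm38.p6), and those of chromosome 18 were not analysed here. Alternatives covered read minimums, weighting, window size, replicate block, tiles per gene, fits with all 9 libraries and leaving out each library.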

Additional observations from a re-analysis of the deposited data

How the results depend on the processing

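The fall of gene bodies held under each alternative run other than the test against the median change, while calls of single tiles and windows did not. The share of genes that passed did depend on the level filter for tiles. With all tested tiles of a gene, whatever their level, 3187 of 5518 genes were lower, against 2523 of 2901 in the main run. Genes lower numbered 3802 of 5051 with at least 2 tiles and 1129 of 1181 with at least 5, 1816 to 2521 with 1 library left out, and 2541 with the replicate block. Against the median change limma gave 0 lower (291 unadjusted). Kept genes numbered 1 with all tested tiles and 2 with an interval within 10 points.

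Tiles lower and higher numbered 0 and 0 with at least 5 reads (18621 and 315 at an unadjusted p under 0.05 in the limma-moderated model), 3917 and 50 with at least 20, 6328 and 74 without scaling of reads, 7525 and 72 with all 9 libraries, and 1 and 0 without the 0.1% of tiles with the most reads. They were 0 and 0 with limma on levels (16261 and 901 unadjusted), with the replicate block (3144 and 23), against the median change (3417 and 1749) and with a dispersion prior from all features (7441 and 70). Leaving out 1 library gave 0 to 0 in both directions (4658 to 6407 lower and 35 to 136 higher unadjusted). Windows lower and higher numbered 188 and 3 at 500 bases either side, 670 and 28 without scaling, 676 and 22 with all 9 libraries and 16 and 0 against the median change (189 higher unadjusted), and 9 were higher with at least 20 reads. They were 0 and 0 with limma on levels (1885 and 291 unadjusted), with the replicate block (991 and 58), with a prior from all features (933 and 43) and with 1 library left out (0 to 0; 942 to 1057 and 68 to 89 unadjusted). The replicate number does not pair the libraries, so a call lost under the block is not a weaker effect. No named window that passed changed sign under the alternatives run, while 8 named windows that had not passed did so. Whether a tile or window passes thus depends on the model, and its cause was not tested.

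The change of the mean over CpGs was 2.06 points when weighted by reads, against -3.89 unweighted. Tiles under 20% changed by 0.0407 points, by -0.110 as an unweighted mean over CpGs and by -0.0373 (without 10 µM replicate 1) to 0.119 with 1 library left out. Depth limits single features most: the median SE was 10.5 points for tiles and 8.05 for windows at 50% or above, and 4.45 for genes.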
